A study of Mus musculus with 8 samples.

Results

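The latent TGF-beta binding proteins (LTBPs) and the fibrillins were examined in the dental pulp (DP) of mice that lack the type II TGF-beta receptor in the dental mesenchyme and of their controls. The genes were taken by symbol: *Ltbp1*, *Ltbp2*, *Ltbp3*, *Ltbp4*, *Fbn1* and *Fbn2*. All 6 were measured, 6 of the 12148 genes of the table. RNA from the pulp of the first molars of C57BL/6J mice at postnatal day 7 (P7) gave 8 sequenced libraries. The 4 Osterix-Cre control libraries came from mice with a Cre recombinase driven by the Osterix promoter. The 4 *Tgfbr2cko* libraries came from mice with the same Cre and a floxed *Tgfbr2* (Osterix-Cre:Tgfbr2f/f), so the Cre is common to both groups. The Osterix promoter acts in odontoblasts and other mesenchymal cells, while the vessels, nerves and blood cells of the pulp are of other origin, so that each library holds cells outside the reach of the deletion. The left and right molars were lysed together, and the labels give neither the sex of the mice nor the animal behind each library. The library titles also repeat a number within a genotype, shared by controls 49 and 50, by mutant 54 and the library labelled Tgfbr2cko 55, and by mutant 53 and the library labelled Tgfbr2cko 56. No source explains that number, so whether these libraries share an animal is not known, and n counts libraries throughout.

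TGF-beta is secreted as a latent complex, in which the mature ligand stays wrapped in its own propeptide. An LTBP binds the propeptide by a disulphide bond and anchors the complex to the extracellular matrix, where fibrillin microfibrils are a main docking site. LTBP1, LTBP3 and LTBP4 carry latent TGF-beta, whereas LTBP2 does not bind it and acts in microfibril assembly. Fibrillin-1 and fibrillin-2 polymerise into the microfibrils themselves, which scaffold elastic fibres and also form fibre systems without elastin, as in tooth-supporting tissues. Loss of LTBP3 is known for thin enamel and short stature in people, and fibrillin-1 is the gene product altered in Marfan syndrome.

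None of the 6 genes was altered in *Tgfbr2cko* pulp by the rule of the study, an unadjusted p under 0.05 with a change of at least 1.5-fold (limma with an intensity trend). The same rule called 701 of the 12148 genes, or 5.77%, of which 443 (3.65%) were lower and 258 (2.12%) were higher in the mutants. An unadjusted p under 0.05 alone was reached by 0 of the 6 genes and by 8.38% of all genes, and an adjusted p under 0.05 by 0 of the 6 and by 0.947% of all. The values of the genotypes overlapped for all 6 genes, while 5.27% of all genes had values that did not overlap. The median log2 fold change, *Tgfbr2cko* over Osterix-Cre, was -0.02 over the 6 genes and -0.01 over all genes tested. In bulk tissue such as this, fewer cells of a type and less RNA per cell cannot be told apart.

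Several facts of the libraries bear on every value. Between 8682872 and 13539670 reads per library fell on the measured genes, and 1 read was worth between 0.0739 and 0.115 counts after scaling to a common library size (CPM). The deleted gene *Tgfbr2* had log2 CPM values of 7.16, 7.62, 7.64 and 7.52 among the controls and 7.02, 7.00, 7.16 and 7.61 in the mutants, which puts the libraries labelled Tgfbr2cko 55 and 56 within the control range, the former just above control 49. These counts cover the whole gene in all cells of the pulp. They therefore cannot show how far the deletion went in the cells with Cre, and they do not test the genotype labels. The library labelled Tgfbr2cko 56 also held 18.5% of its reads on the enamel matrix genes *Amelx* and *Ambn*, against 0.326% to 2.74% in the other 7. The *Tgfbr2* difference was -0.29 on the log2 scale (limma p = 0.119, adjusted p = 0.79, exact permutation p = 0.143) with all libraries and -0.42 (limma p = 0.0136, adjusted p = 0.295) without the library labelled Tgfbr2cko 56. It was -0.39 (adjusted p = 0.569) without control 49. The differences of the LTBPs and fibrillins are therefore also given without the library labelled Tgfbr2cko 56. Without the library labelled Tgfbr2cko 55 they were -0.49 for *Ltbp1*, -0.11 for *Ltbp2*, 0.04 for *Ltbp3*, -0.13 for *Ltbp4*, -0.22 for *Fbn1* and 0.02 for *Fbn2* on the log2 scale, and 0 of the 6 passed the rule. Libraries carry the number at the end of their titles, 49 to 52 for the controls and 53 to 56 for the mutants.

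**Figure D1:**
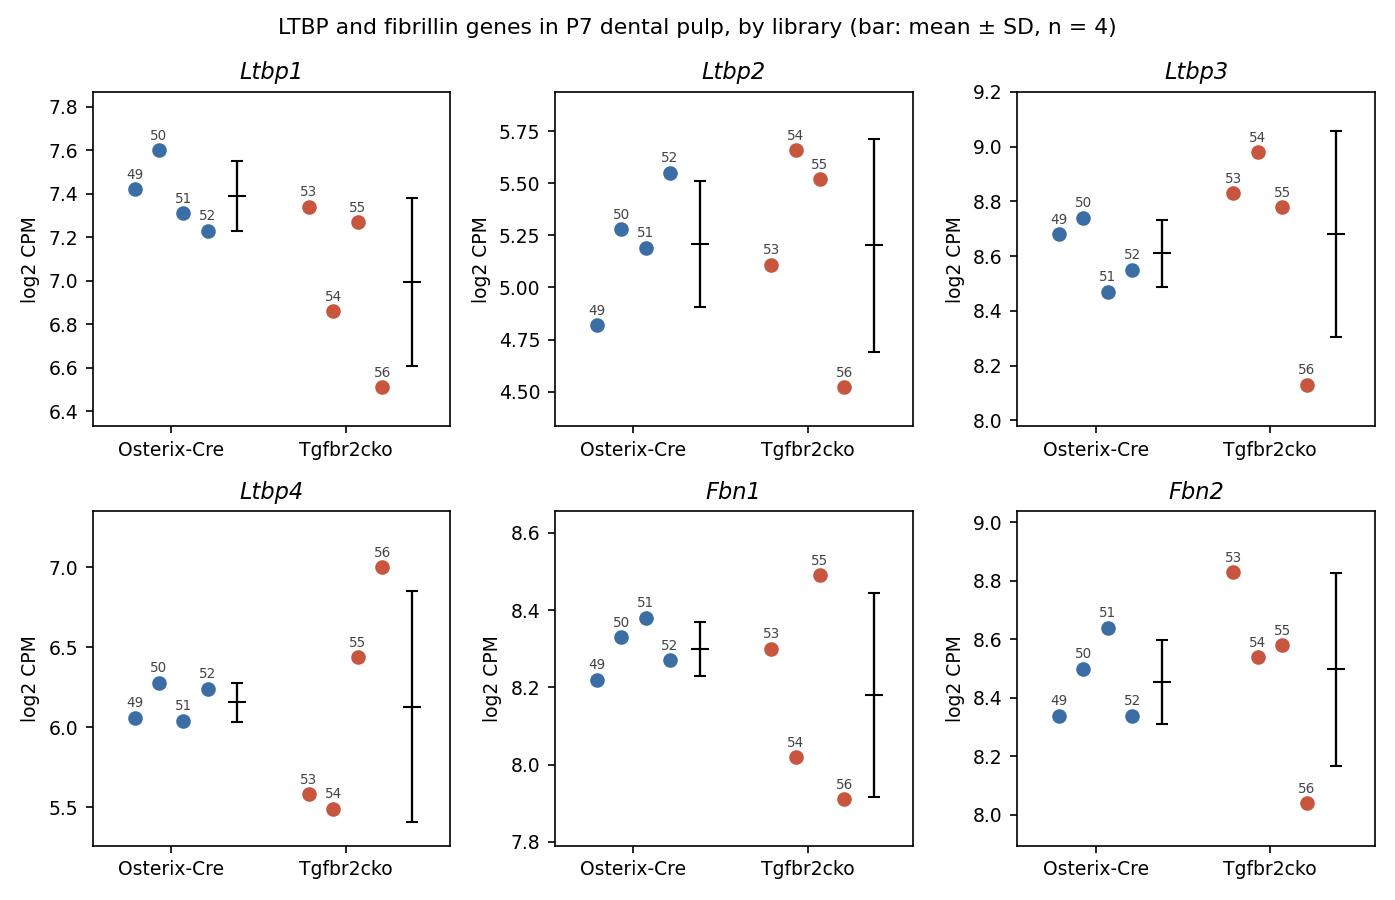
Log2 CPM of each LTBP and fibrillin gene in the 8 libraries, 1 panel per gene with its own vertical scale, controls in blue and *Tgfbr2cko* in red, with the mean and SD of each group (n = 4). The library labelled Tgfbr2cko 56 is the lowest point in 5 panels and the highest for *Ltbp4*.

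*Ltbp1*, whose product is a main carrier of latent TGF-beta1, had the largest mean difference of the group with all 8 libraries, though not without the library labelled Tgfbr2cko 56, with the enamel covariate described below or with the title number as a block. The gene (ENSMUSG00000001870.15) lies on chromosome 17 from 75005568 to 75392512 on the plus strand (GRCm38), and 1233 to 1875 reads per library fell on its exons. Log2 CPM was 7.42, 7.60, 7.31 and 7.23 among the controls and 7.34, 6.86, 7.27 and 6.51 among the mutants. Mutant 54 and the library labelled Tgfbr2cko 56 lay below every control, and the other mutants lay within the control range. The means were 7.39 ± 0.16 and 7.00 ± 0.39 (SD, n = 4 each), a log2 fold change of -0.39 (standard error 0.19, 95% interval -0.80 to 0.01, limma p = 0.0532, adjusted p = 0.608, exact permutation p = 0.143). Without the library labelled Tgfbr2cko 56 it was -0.23 (limma, adjusted p = 0.753). The unadjusted p of *Ltbp1* was under 0.05 when 1 of the libraries 52, 53 or 55 was left out, with log2 fold changes of -0.45, -0.51 and -0.49 and adjusted p of 0.659, 0.28 and 0.574, none with a change of 1.5-fold.

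*Ltbp1* is transcribed from separate starts that give a long and a short protein, and the gene-level counts do not tell which start was used. The 250 bases before both starts are printed for *Ltbp1*, with those of *Ltbp3*. These genes were picked because their ratio, 1 of 15 examined below, was the only one without overlap between the genotypes. The printed bases are RefSeq sequences on GRCm38.p6, 5′ to 3′ on the strand of the gene, and the capitals mark CAGAC or its reverse complement GTCTG, the short SMAD box to which receptor-activated SMAD proteins can bind. The first bases transcribed from each printed start were held whole by 0 transcripts of the annotation used here (GENCODE M21). Those of the *Ltbp2*, *Ltbp4* and *Fbn1* starts were each held by 1 to 3.
Ltbp1 start 1, chr17:75005279-75005528, plus strand: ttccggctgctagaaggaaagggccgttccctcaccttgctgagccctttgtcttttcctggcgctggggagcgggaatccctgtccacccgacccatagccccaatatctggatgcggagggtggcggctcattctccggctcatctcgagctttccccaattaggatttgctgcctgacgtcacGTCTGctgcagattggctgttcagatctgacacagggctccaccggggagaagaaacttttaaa
Ltbp1 start 2, chr17:75178531-75178780, plus strand: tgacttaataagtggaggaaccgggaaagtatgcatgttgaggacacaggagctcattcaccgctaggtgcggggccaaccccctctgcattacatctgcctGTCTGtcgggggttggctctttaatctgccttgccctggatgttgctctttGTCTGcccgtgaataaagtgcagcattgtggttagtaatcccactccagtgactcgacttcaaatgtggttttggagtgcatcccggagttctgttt
Ltbp3, chr19:5740650-5740899, plus strand: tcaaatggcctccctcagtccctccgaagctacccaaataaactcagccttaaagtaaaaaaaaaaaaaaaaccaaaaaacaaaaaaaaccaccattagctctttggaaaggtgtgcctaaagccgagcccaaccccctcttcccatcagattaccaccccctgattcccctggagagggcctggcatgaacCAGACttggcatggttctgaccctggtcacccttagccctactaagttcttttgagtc
The upstream *Ltbp1* start has 1 SMAD box, whose first base is 64 bases before the start, and the downstream one has 2, at 148 and 97 bases. *Ltbp3* has 1, at 58 bases. Of the promoters of the same length in the whole table, 42.2% of 32851 hold at least 1 such match, so a match is common. The upstream *Ltbp1* promoter has 56.8% GC and 12 CpG, whereas the *Ltbp3* promoter has 47.2% GC and 2 CpG, against medians of 52.4% and 6 over all promoters. *Ltbp2* has 2 SMAD boxes, and the *Fbn1* promoter and the 3 *Ltbp4* promoters have 0. The letters GGGCGG or CCGCCC, an SP1 box, occurred 3, 7 and 5 times in the *Ltbp4* promoters, 2 times for *Ltbp2*, 1 time for *Fbn1* and 0 times in those of *Ltbp1* and *Ltbp3*, with at least 1 match in 32.7% of all promoters. The 2 *Ltbp4* windows with 7 and 5 overlap each other. TATAAA or TTTATA, the TATA box, was in 0 of these 8 promoters and in 12.4% of all.

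*Ltbp3*, which carries latent TGF-beta and is needed for the growth of bone and teeth, was the most abundant of the 6 (ENSMUSG00000024940.10, chromosome 19 from 5740904 to 5758532, plus strand). Its log2 CPM values were 8.68, 8.74, 8.47 and 8.55 among the controls and 8.83, 8.98, 8.78 and 8.13 in the mutants. Mutants 53 and 54 and the library labelled Tgfbr2cko 55 lay above every control, and the library labelled Tgfbr2cko 56 lay below every control. The means were 8.61 ± 0.12 and 8.68 ± 0.37 (SD, n = 4 each), with a log2 fold change of 0.07 (standard error 0.19, 95% interval -0.33 to 0.47, limma p = 0.707, adjusted p = 0.998, exact permutation p = 0.771). Without the library labelled Tgfbr2cko 56 the log2 fold change was 0.25 (limma, adjusted p = 0.647).

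*Ltbp4*, a carrier of latent TGF-beta1 that also guides fibulin-5 and elastin onto microfibrils, spread the most among the mutants (ENSMUSG00000040488.17, chromosome 7 from 27305136 to 27337692, minus strand). The controls lay close together at log2 CPM values of 6.06, 6.28, 6.04 and 6.24, whereas the mutants had 5.58, 5.49, 6.44 and 7.00. The mutants 53 and 54 lay below every control and the libraries labelled Tgfbr2cko 55 and 56 above every control, so that the control values lay in the gap between them. The means of 6.16 ± 0.12 and 6.13 ± 0.72 (SD, n = 4 each) were nearly equal, with a log2 fold change of -0.03 (standard error 0.28, 95% interval -0.63 to 0.57, limma p = 0.92, adjusted p = 0.998, exact permutation p = 0.971). The difference was -0.32 (limma, adjusted p = 0.746) without the library labelled Tgfbr2cko 56.

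*Ltbp2*, the microfibril protein that does not carry latent TGF-beta, was the least abundant, with 277 to 619 reads per library (ENSMUSG00000002020.15, chromosome 12 from 84783212 to 84876532, minus strand). Log2 CPM was 4.82, 5.28, 5.19 and 5.55 among the controls and 5.11, 5.66, 5.52 and 4.52 among the mutants. The groups overlapped, with the highest and the lowest of the 8 values both among the mutants. The means of 5.21 ± 0.30 and 5.20 ± 0.51 (SD, n = 4 each) gave a log2 fold change of -0.01 (standard error 0.24, 95% interval -0.53 to 0.51, limma p = 0.974, adjusted p = 0.998, exact permutation p = 0.971), or 0.22 (limma, adjusted p = 0.86) without the library labelled Tgfbr2cko 56.

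*Fbn1*, which encodes fibrillin-1, the main microfibril subunit after birth, varied least among the controls (ENSMUSG00000027204.13, chromosome 2 from 125300594 to 125507993, minus strand). Its log2 CPM values were 8.22, 8.33, 8.38 and 8.27 among the controls and 8.30, 8.02, 8.49 and 7.91 in the mutants. Mutant 54 and the library labelled Tgfbr2cko 56 lay below every control and the library labelled Tgfbr2cko 55 above every control. The means were 8.30 ± 0.07 and 8.18 ± 0.27 (SD, n = 4 each), with a log2 fold change of -0.12 (standard error 0.16, 95% interval -0.45 to 0.22, limma p = 0.473, adjusted p = 0.99, exact permutation p = 0.429), or -0.02 (limma, adjusted p = 0.991) without the library labelled Tgfbr2cko 56. Of the *Fbn1* exon bases, 20.1% overlap the gene model *Gm9913* on the opposite strand. The sources used here do not say whether the counting used strand, so reads from that overlap cannot be assigned to either gene. The overlap with opposite genes was 9.34% for *Ltbp2* and at most 2.01% for the other 4.

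*Fbn2*, which encodes fibrillin-2, best known from embryonic microfibrils, was measured at 3171 to 4575 reads per library (ENSMUSG00000024598.8, chromosome 18 from 58008623 to 58210487, minus strand). Its log2 CPM was 8.34, 8.50, 8.64 and 8.34 among the controls, and 8.83, 8.54, 8.58 and 8.04 in the mutants. The library labelled Tgfbr2cko 56 was the lowest, mutant 53 was the highest, and the other mutants lay within the control range. The means were 8.45 ± 0.14 and 8.50 ± 0.33 (SD, n = 4 each), with a log2 fold change of 0.05 (standard error 0.18, 95% interval -0.34 to 0.43, limma p = 0.802, adjusted p = 0.998, exact permutation p = 0.886), or 0.20 (limma, adjusted p = 0.795) without the library labelled Tgfbr2cko 56.

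The intervals given above, from the fit of all 8 libraries without a covariate, bound the size of the differences possible under that fit. On the linear scale the 95% interval of the fold ran from 0.576 to 1.00 for *Ltbp1*, from 0.692 to 1.43 for *Ltbp2*, from 0.795 to 1.39 for *Ltbp3*, from 0.648 to 1.48 for *Ltbp4*, from 0.73 to 1.17 for *Fbn1* and from 0.792 to 1.34 for *Fbn2*. In that fit a rise of 1.5-fold therefore lies outside all 6 intervals. A fall of 1.5-fold lies outside those of *Ltbp2*, *Ltbp3*, *Fbn1* and *Fbn2* and within those of *Ltbp1* and *Ltbp4*. Intervals of the other fits are not given, and they need not exclude a 1.5-fold change. With each library left out, the log2 fold change ran from -0.16 to 0.219 for *Ltbp2* and from -0.318 to 0.185 for *Ltbp4*.

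To compare the levels of the genes with each other, the reads were divided by the length of the merged exons in kilobases and scaled to a common library size (RPKM). *Ltbp3* stood first at 43.1 ± 3.67 RPKM among the controls and 46.3 ± 10.7 RPKM in the mutants (SD, n = 4 each here and below). The fibrillins followed, *Fbn2* at 26.6 ± 2.70 and 27.9 ± 5.98 RPKM and *Fbn1* at 26.0 ± 1.23 and 24.2 ± 4.52 RPKM. *Ltbp1* had 15.8 ± 1.79 and 12.2 ± 3.11 RPKM, *Ltbp4* had 11.1 ± 0.944 and 11.9 ± 6.03 RPKM, and *Ltbp2* had 4.59 ± 0.934 and 4.69 ± 1.51 RPKM. *Ltbp3* ranked first and *Ltbp2* last in all 8 libraries. With this length the fibrillins were neighbours that did not differ beyond their spread, with *Fbn2* above *Fbn1* in 5 of 8 libraries and a log2 ratio of 0.03 ± 0.08 among the controls and 0.19 ± 0.24 in the mutants. *Ltbp1* lay above *Ltbp4* in 7 of 8 libraries, and the order turned only in the library labelled Tgfbr2cko 56, where the log2 ratio was -1.21. The 6 genes together held 127 ± 5.97 RPKM among the controls and 127 ± 17.6 RPKM in the mutants, and the library labelled Tgfbr2cko 56, at 102 RPKM, was the only one under the lowest control of 123 RPKM. The order in the middle depends on the length used. With the longest transcript in place of the merged exons, *Fbn2* was at 31.9 ± 3.23 and 33.4 ± 7.15 RPKM and *Fbn1* at 26.3 ± 1.25 and 24.6 ± 4.58 RPKM, with *Fbn2* higher in 8 of 8 libraries. *Ltbp1* then had 25.3 ± 2.87 RPKM among the controls, near *Fbn1*.

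**Figure D2:**
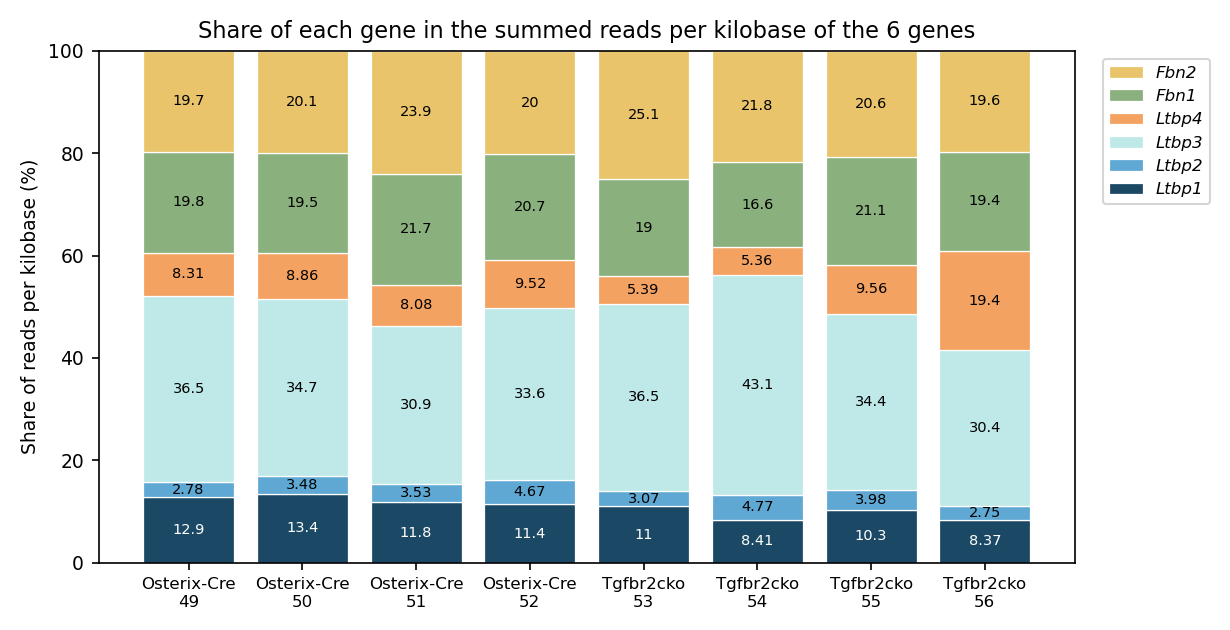
Share of each gene, in percent, in the summed reads per kilobase of the 6 genes, 1 stacked bar per library. The dark bottom segment, *Ltbp1*, is between 11.4% and 13.4% in the 4 controls and between 8.37% and 11.0% in the 4 mutants, and *Ltbp4* takes 19.4% in the library labelled Tgfbr2cko 56.

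The makeup of the group within each library does not depend on how libraries are scaled, and *Ltbp1* was the gene whose share did not overlap between the genotypes. Its share of the summed reads per kilobase was 12.9%, 13.4%, 11.8% and 11.4% among the controls and 11.0%, 8.41%, 10.3% and 8.37% in the mutants. Every mutant lay below every control. The mean share was 12.4% ± 0.908 against 9.52% ± 1.34 (SD, n = 4 each), a difference of -2.85 percentage points with an exact two-sided permutation p of 0.0286, the smallest that the 70 arrangements allow. This p is not adjusted for the 6 shares tested, and it did not stay under 0.05 with such an adjustment. The difference was -2.47 points without the library labelled Tgfbr2cko 56 (exact permutation p = 0.0286), and leaving out any 1 control raised the exact permutation p to 0.0571, with differences between -3.17 and -2.52 points. The shares of a library add up to the whole, so they are not independent of each other.

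The other 5 shares overlapped between the genotypes. *Ltbp3* held 33.9% ± 2.31 among the controls and 36.1% ± 5.28 in the mutants (exact permutation p = 0.571, n = 4 each), with 43.1% in mutant 54 as its highest share. *Fbn1* held 20.4% ± 1.01 and 19.0% ± 1.89 (exact permutation p = 0.229), and *Fbn2* held 21% ± 1.98 and 21.8% ± 2.37 (exact permutation p = 0.543). *Ltbp4* varied from 5.36% to 19.4% among the mutants and from 8.08% to 9.52% among the controls (exact permutation p = 0.886), and *Ltbp2* held 3.62% ± 0.779 and 3.64% ± 0.916 (exact permutation p = 0.943).

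The *Ltbp1* share was set beside ratios that leave the other genes out. Of the 15 ratios between pairs of the 6 genes, that of *Ltbp3* to *Ltbp1* was the only one whose values did not overlap between the genotypes. Among single genes of the whole table, 5.27% had values that did not overlap. The ratio was singled out after all were seen, and its exact permutation p did not stay under 0.05 when adjusted for the 15 ratios. Its log2 ratio, per kilobase, was 1.5, 1.37, 1.39 and 1.56 among the controls and 1.72, 2.36, 1.75 and 1.86 in the mutants. *Ltbp3* thus exceeded *Ltbp1* by more in each mutant, with means of 1.46 ± 0.09 and 1.92 ± 0.29 (SD, n = 4 each). The log2 ratios of *Fbn2* to *Ltbp1*, at 0.76 ± 0.20 and 1.20 ± 0.15, and of *Fbn1* to *Ltbp1*, at 0.73 ± 0.17 and 1.00 ± 0.18, overlapped.

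The spread among the mutants depended in part on the library labelled Tgfbr2cko 56, less so for *Ltbp4* and *Fbn1*. With all 8 libraries, the SD of the log2 CPM values was larger in the mutants for 6 of 6 genes and for 59.1% of all genes, and the median ratio of the mutant to the control SD was 2.72 over the 6 genes and 1.15 over all. *Ltbp4* had the highest ratio, 5.86, and *Ltbp2* the lowest, 1.70. Without the library labelled Tgfbr2cko 56 the mutant SD was larger for 4 of 6 genes and for 43.0% of all genes, and the median ratios were 1.35 and 0.90. The ratio was then 4.27 for *Ltbp4*, 3.49 for *Fbn1*, 1.61 for *Ltbp1*, 1.09 for *Fbn2*, 0.95 for *Ltbp2* and 0.85 for *Ltbp3*. The library labelled Tgfbr2cko 56 gave the lowest of the 8 values for *Ltbp1*, *Ltbp2*, *Ltbp3*, *Fbn1* and *Fbn2* and the highest for *Ltbp4*. Its median log2 CPM over all genes was 4.81, against 4.92 to 5.08 in the other 7 libraries. The CPM values of a library share a common total. The 18.5% of reads on *Amelx* and *Ambn* in the library labelled Tgfbr2cko 56 therefore lower the values of its other genes. The share of all genes with their lowest value in that library was not determined.

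**Figure D3:**
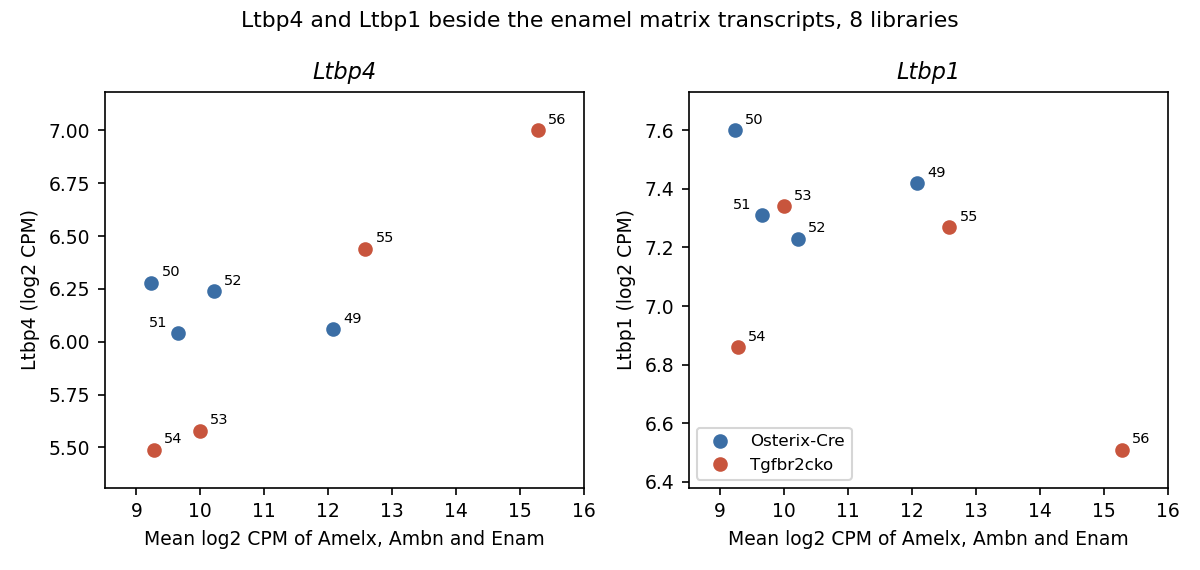
Log2 CPM of *Ltbp4* (left) and *Ltbp1* (right) on the vertical axis against the mean log2 CPM of *Amelx*, *Ambn* and *Enam* on the horizontal axis, 1 point per library. The libraries labelled Tgfbr2cko 55 and 56 hold the highest enamel means, 12.58 and 15.28, and the highest *Ltbp4* values, 6.44 and 7.00, while control 49, at an enamel mean of 12.08, has an *Ltbp4* value of 6.06 among the other controls.

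Enamel matrix transcripts moved with *Ltbp4* among the mutants. The mean log2 CPM of *Amelx*, *Ambn* and *Enam*, which encode proteins that ameloblasts secrete, was 9.99, 9.27, 12.58 and 15.28 in the mutants, whose *Ltbp4* values were 5.58, 5.49, 6.44 and 7.00. In the controls the enamel means were 12.08, 9.23, 9.65 and 10.21, and control 49, with the highest of them, had one of the lower *Ltbp4* values, 6.06. All 7 ameloblast and enamel genes of the list used were measured, with a summed level of 3970 to 23300 CPM among the controls and 4120 to 193000 CPM in the mutants, a sum made up mostly of *Amelx* and *Ambn*. The members of that list differed in direction, with log2 fold changes of 1.39 for *Amelx*, 1.45 for *Ambn* and 1.63 for *Enam*, and of -0.38 for *Mmp20*, -0.76 for *Odam* and -0.89 for *Amtn*, none of which passed the rule, while *Klk4* fell by 2.71 (limma, adjusted p = 0.000136). With the enamel mean added to the model, the log2 fold change of *Ltbp4* was -0.34 (limma, adjusted p = 0.647) and that of *Ltbp1* was -0.29 (limma, adjusted p = 0.697). The dissection was meant to free the pulp of the enamel organ, the tissue that holds the ameloblasts. The part of ameloblast RNA in the *Ltbp4* values was not tested beyond this.

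**Figure D4:**
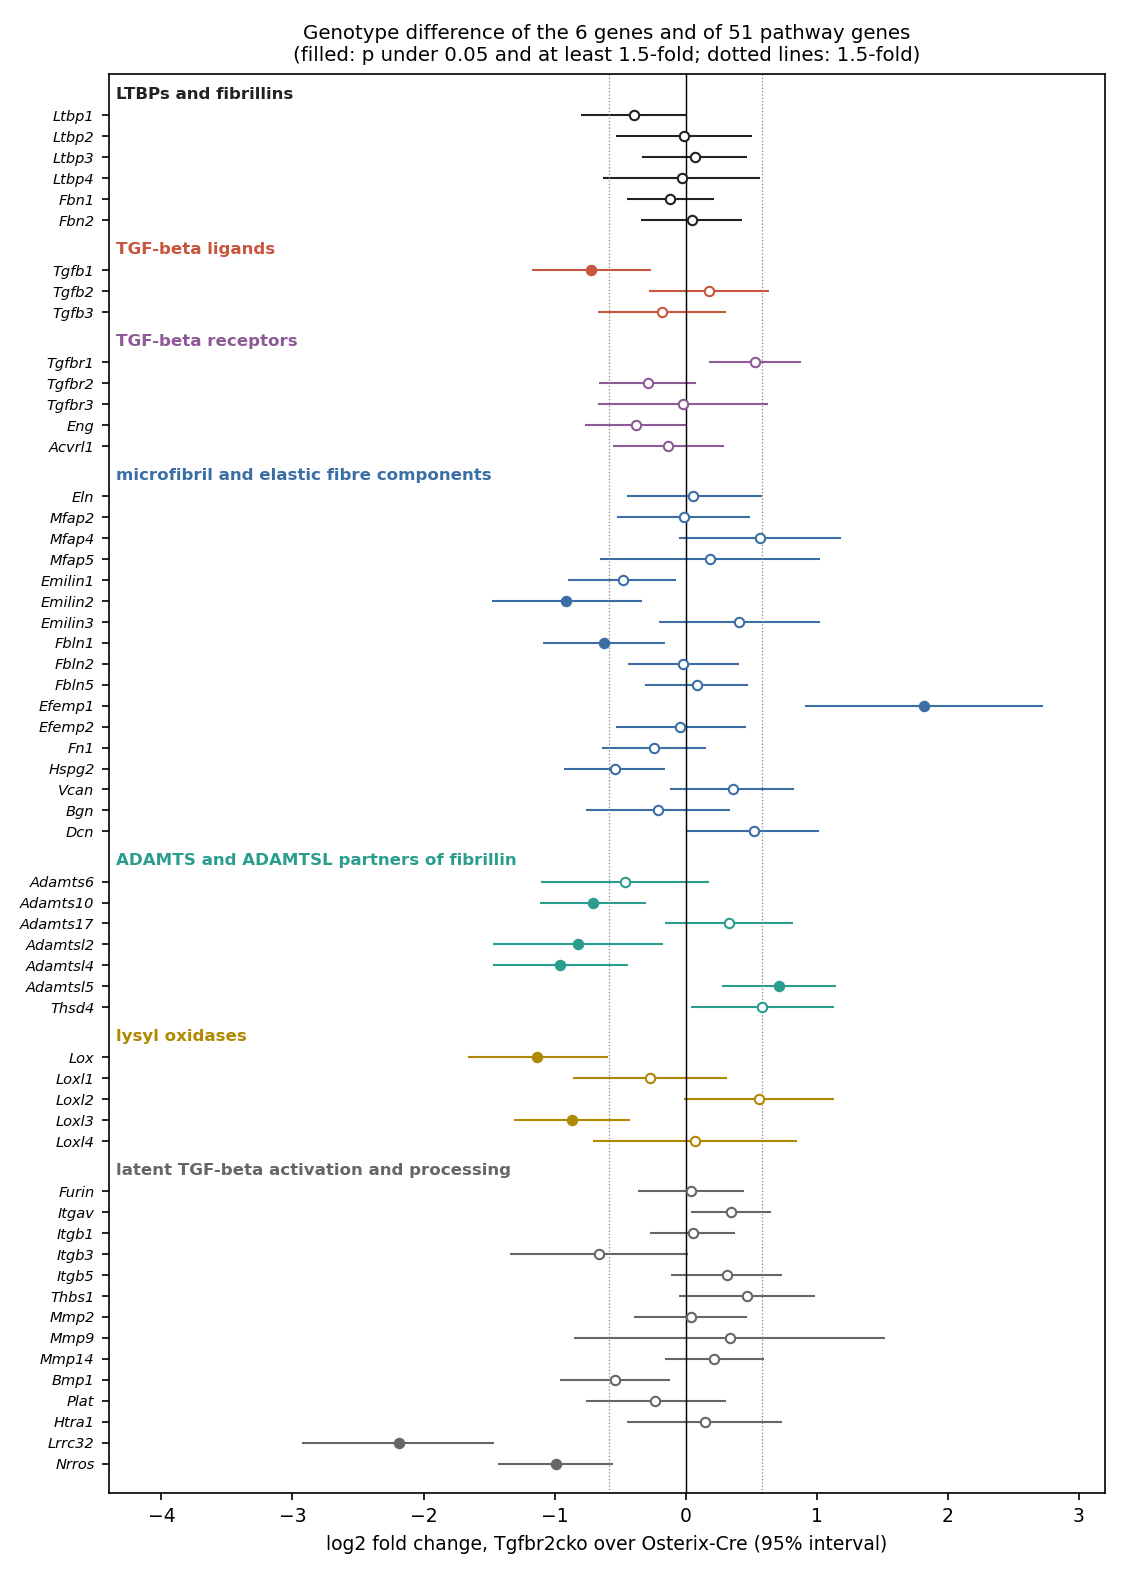
Log2 fold change, *Tgfbr2cko* over Osterix-Cre, with its 95% interval for the 6 genes and the 51 measured genes of their pathway, grouped by role. Filled points have an unadjusted p under 0.05 and at least a 1.5-fold change (dotted lines), 10 to the left and 2 to the right, and the 6 points of the LTBPs and fibrillins at the top are open.

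The partners of the 6 genes were described from lists by role, chosen with earlier results of these data known. Of 55 partners listed, 51 were measured, and 12 of them, or 23.5%, passed the rule of the study, 10 lower and 2 higher in the mutants, against 5.77% of all genes, 3.65% lower and 2.12% higher. The median log2 fold change over the 51 was -0.02. The count was 10 without the library labelled Tgfbr2cko 56.

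The ligand that LTBPs hold was the first point of comparison. *Tgfb1* (ENSMUSG00000002603.15), the TGF-beta1 gene, had log2 CPM values of 5.16, 5.34, 5.07 and 4.78 among the controls and 4.69, 4.09, 4.71 and 3.99 in the mutants. Every mutant lay below every control. *Tgfb1* fell by 0.72 on the log2 scale (standard error 0.21, limma p = 0.00466, adjusted p = 0.179, exact permutation p = 0.0286), and by 0.59 without the library labelled Tgfbr2cko 56 (limma, adjusted p = 0.278). The other two ligands, at log2 fold changes of 0.18 for *Tgfb2* (limma p = 0.408, adjusted p = 0.974, exact permutation p = 0.486) and -0.18 for *Tgfb3* (limma p = 0.436, adjusted p = 0.98, exact permutation p = 0.486), did not pass. Of the 5 receptors measured, 0 passed the rule. *Tgfbr1*, the type I receptor, had a log2 fold change of 0.53 (limma p = 0.00652, adjusted p = 0.217, exact permutation p = 0.0286) that stayed under 1.5-fold, with every mutant above every control.

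Among the 14 measured genes that tether, process or activate latent TGF-beta, 2 fell by the rule of the study, or 14.3% against 5.77% of all genes. Both encode the membrane proteins that hold latent TGF-beta at the cell surface in place of an LTBP. *Bmp1* at -0.54, which the paper lists as downregulated, and *Itgav* at 0.35 had an unadjusted p under 0.05 but a change under 1.5-fold (limma, adjusted p = 0.338 and adjusted p = 0.451). Every mutant lay above every control for *Itgav*. *Lrrc32* encodes GARP, known from regulatory T cells, platelets and endothelium. Its log2 CPM values were 3.81, 3.90, 4.09 and 3.57 among the controls and 0.49, 1.95, 2.07 and 2.09 in the mutants, from 12 to 162 reads per library, and the groups lay far apart. *Lrrc32* (ENSMUSG00000090958.2) fell by 2.19 (standard error 0.34, limma p = 2.26e-05, adjusted p = 0.00721, exact permutation p = 0.0286), and by 2.34 without the library labelled Tgfbr2cko 56 (adjusted p = 0.00457).

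*Nrros* encodes LRRC33, the corresponding protein of macrophages and microglia. Its log2 CPM values were 5.67, 5.71, 5.71 and 5.58 among the controls and 5.17, 4.81, 4.61 and 4.11 in the mutants, again without overlap. *Nrros* (ENSMUSG00000052384.13) fell by 0.99 (standard error 0.20, limma p = 0.000303, adjusted p = 0.0354, exact permutation p = 0.0286). Its adjusted p lay above 0.05 when any 1 of the libraries 49, 50, 51, 52, 54 or 55 was left out (0.0719 to 0.122, with log2 fold changes from -1.03 to -0.97), and it was 0.0303 without the library labelled Tgfbr2cko 56. Of 5 macrophage markers, all measured, *Cd68* and *Ptprc* were lower by the rule of the study and the other 3 did not pass, with summed levels of 392 to 485 CPM among the controls and an overlapping 203 to 472 CPM in the mutants. Markers of endothelium, also 5 of 5, summed to 211 to 291 CPM and 174 to 227 CPM, and *Tek* was lower. Pericyte and smooth muscle markers, 5 of 6 measured, summed to 405 to 539 CPM and 293 to 380 CPM, and *Rgs5* and *Pdgfrb* were lower. The part of these cells in the *Lrrc32* and *Nrros* differences was not tested.

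**Figure D5:**
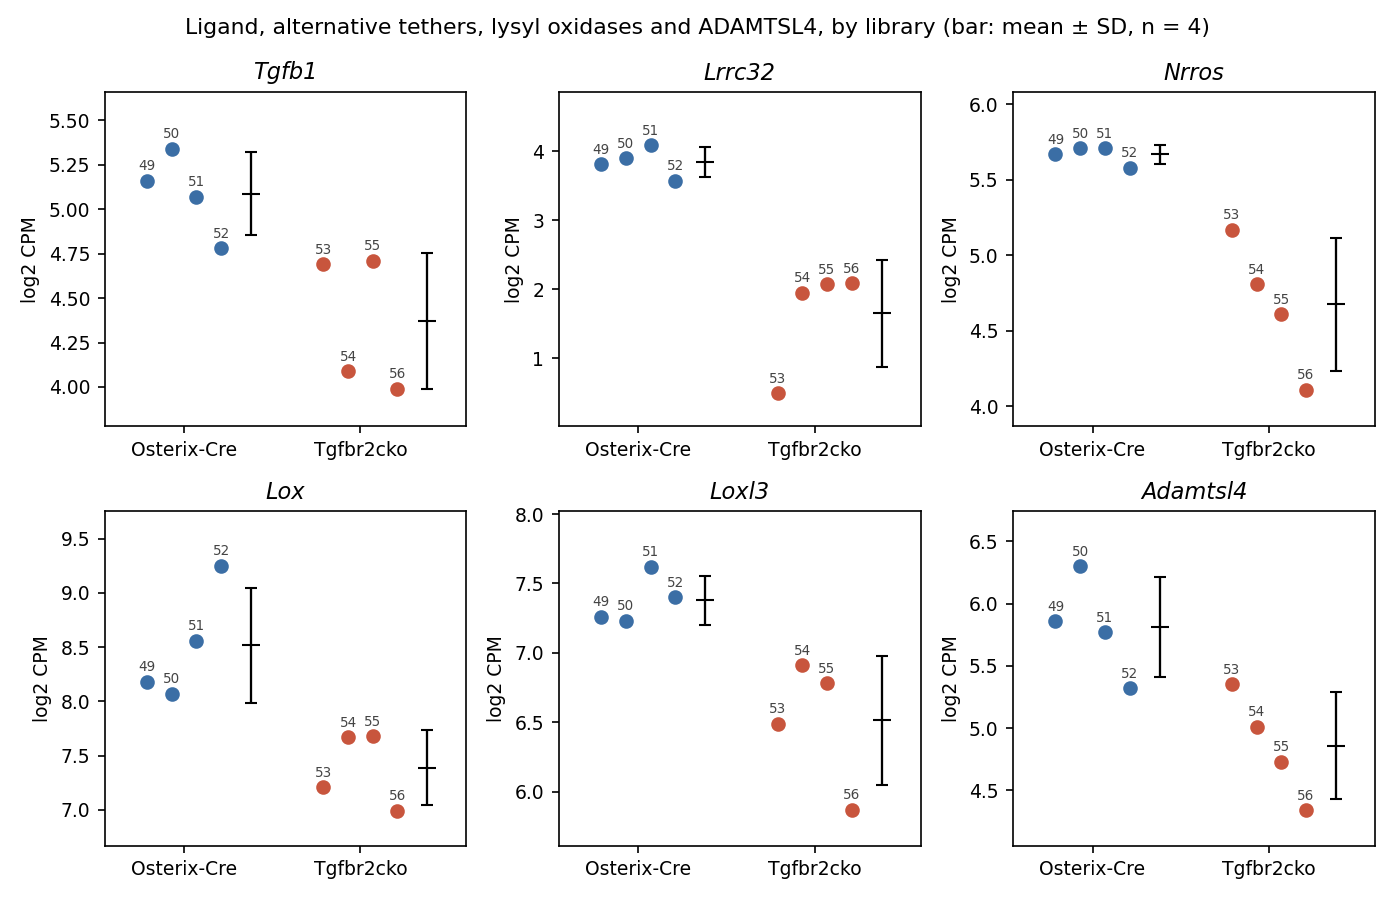
Log2 CPM of 6 partner genes in the 8 libraries, 1 panel per gene with its own vertical scale, controls in blue and *Tgfbr2cko* in red, with the mean and SD of each group (n = 4). All mutant points lie below all control points for *Tgfb1*, *Lrrc32*, *Nrros*, *Lox* and *Loxl3*, and mutant 53 lies just above control 52 for *Adamtsl4*.

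Of the 17 measured components of microfibrils and elastic fibres, 2 fell and 1 rose, with a median log2 fold change of -0.01. *Emilin2*, an elastin microfibril interface protein, fell by 0.91 (standard error 0.27, limma p = 0.00472, adjusted p = 0.181, exact permutation p = 0.0571). *Fbln1*, encoding fibulin-1, fell by 0.62 (standard error 0.21, limma p = 0.0119, adjusted p = 0.287, exact permutation p = 0.0286), but by 0.47 without library 50 and by 0.49 without the library labelled Tgfbr2cko 56, both under 1.5-fold. It was also under 1.5-fold with library weights (-0.56), with libraries of one title number averaged (-0.57), with the enamel covariate (-0.49) and with totals without *Amelx* and *Ambn* (-0.55). *Efemp1*, encoding fibulin-3, rose by 1.82 from a low level, a log2 CPM of 1.26 ± 0.60 to 3.08 ± 0.85 (SD, n = 4 each, limma p = 0.000818, adjusted p = 0.0676, exact permutation p = 0.0571), and the groups overlapped in 1 mutant library, 54. Without the library labelled Tgfbr2cko 56, *Emilin2* was at -0.64 and *Efemp1* at 1.48 on the log2 scale, both still past the threshold. Among the other components the log2 fold change was -0.01 for *Mfap2* (limma p = 0.952, adjusted p = 0.998, exact permutation p = 0.971), which encodes the microfibril protein MAGP1, and 0.06 for *Eln*, elastin (limma p = 0.799, adjusted p = 0.998, exact permutation p = 0.857). It was 0.57 for *Mfap4* and 0.19 for *Mfap5* (limma, adjusted p = 0.662 and adjusted p = 0.998). *Emilin1* at -0.48 and *Hspg2*, encoding perlecan, at -0.54 had an unadjusted p under 0.05 but a change under 1.5-fold (limma, adjusted p = 0.438 and adjusted p = 0.251), as had *Dcn*, encoding decorin, in the other direction, at 0.52 (adjusted p = 0.57).

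The ADAMTS and ADAMTSL proteins bind fibrillin and govern how microfibrils form. Of 8 listed, 7 were measured, 3 fell and 1 rose, and the median log2 fold change was -0.46. *Adamtsl4* fell by 0.96 (standard error 0.24, limma p = 0.00154, adjusted p = 0.0974, exact permutation p = 0.0571) and *Adamts10* by 0.71 (standard error 0.19, limma p = 0.00242, adjusted p = 0.123, exact permutation p = 0.0286). *Adamts10* was at -0.56, under 1.5-fold, both without the library labelled Tgfbr2cko 56 and with the enamel covariate. *Adamtsl2*, whose product also binds LTBP1, fell by 0.82 (standard error 0.30, limma p = 0.0171, adjusted p = 0.352, exact permutation p = 0.114), a call lost when library 51, 52 or 56 was left out (log2 fold changes of -0.68, -0.68 and -0.60, with adjusted p from 0.525 to 0.706). *Adamtsl5* rose by 0.71 (standard error 0.20, limma p = 0.00338, adjusted p = 0.147, exact permutation p = 0.0571), and by 0.85 without the library labelled Tgfbr2cko 56 (adjusted p = 0.0457).

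Of the 5 lysyl oxidases, which crosslink elastin and collagen, all were measured and 2 fell, with a median log2 fold change of -0.27. *Lox* had log2 CPM values of 8.18, 8.07, 8.56 and 9.25 among the controls and 7.21, 7.67, 7.68 and 6.99 in the mutants, with every mutant below every control. *Lox* fell by 1.13 (standard error 0.25, limma p = 0.000531, adjusted p = 0.0546, exact permutation p = 0.0286), and by 1.00 without the library labelled Tgfbr2cko 56 (adjusted p = 0.0856). Over the fits that each omit 1 library, its adjusted p ran from 0.0446 to 0.154. *Loxl3* fell by 0.87 (standard error 0.21, limma p = 0.00104, adjusted p = 0.0756, exact permutation p = 0.0286), and 11.6% of its exon bases overlap *Htra2* on the opposite strand. *Loxl1*, *Loxl2* and *Loxl4* had log2 fold changes of -0.27, 0.56 and 0.07 that did not pass the test (limma, adjusted p = 0.962, adjusted p = 0.61 and adjusted p = 0.998).

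The tissue label was checked against the markers of 4 cell types. All 5 odontoblast markers were measured, with a summed level of 47300 to 101000 CPM among the controls and 28700 to 61800 CPM in the mutants. *Bglap* and *Nes* fell, while *Dspp*, *Dmp1* and *Col1a1*, which makes up most of this sum, did not pass the rule. All 6 pulp mesenchyme markers were measured, at 17100 to 37600 CPM and 9930 to 15600 CPM, and *Col1a2*, which makes up most of this sum, fell. The other 5 summed to 1710 to 2650 CPM among the controls and 2110 to 2650 CPM in the mutants, and 0 of them passed the rule. Of 4 bone markers 2 were measured, at 2000 to 2730 CPM and 1710 to 1830 CPM, and *Ibsp* rose by the rule of the study. The other, *Alpl*, makes up most of this sum and went the other way, with every mutant below every control. Its log2 CPM was 10.94 to 11.4 among the controls and 10.68 to 10.77 in the mutants. The log2 fold change of *Alpl*, -0.46, stayed under 1.5-fold, so it did not pass the rule. Of 5 Schwann cell markers 2 were measured, at 17.3 to 24.4 CPM and 23.5 to 24.4 CPM, and 0 passed the rule. The part of such shifts in the LTBP and fibrillin values was not tested.

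Across the 8 libraries, the genes with the profile closest to each LTBP or fibrillin were found by the root mean square (RMS) distance between log2 values, each gene centred on its own mean, among 12147 genes. They were *Sh2b3*, *Dvl3* and *Sept5* for *Ltbp1* (distances of 0.079, 0.092 and 0.093), *Farp2*, *Crat* and *Nck2* for *Ltbp2* (0.113, 0.116 and 0.121) and *Lmo4*, *Grsf1* and *N6amt1* for *Ltbp3* (0.055, 0.06 and 0.066). For *Ltbp4* they were *Zfat*, *C630043F03Rik* and *Stim2* (0.186, 0.214 and 0.217), for *Fbn1* *Tmem203*, *Trappc3* and *Birc3* (0.057, 0.062 and 0.068), and for *Fbn2* *Nmral1*, *Mpnd* and *Ankrd11* (0.066, 0.066 and 0.076). None of these 18 genes is on the lists of partners. *Ltbp4* had the most distant neighbours, and its own RMS deviation from its mean, 0.448, was also the largest of the 6, against 0.179 for *Fbn1*, the smallest.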

How the data were processed

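Dental pulp RNA from 4 Osterix-Cre and 4 *Tgfbr2cko* libraries was analysed. The authors preamplified the RNA from a low input without molecular identifiers, prepared libraries with a transposase kit, and processed the reads with fastp 0.21.0, HISAT2 2.1.0 and featureCounts of Subread 2.0.1, with GRCm38.p5 in the submitters' processing notes. They kept genes that the CLEAR workflow passed, and the deposited values are voom log2 CPM with 0.5 added to each count. By that formula all 97184 values returned to reads within 3.61e-08 of a whole number, and 1 read is worth 0.0739 to 0.115 CPM. Counting precision refers to reads, not molecules.

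The log2 values were tested over all 12148 genes with limma 3.58.1 in R 4.3.3, in a moderated two-sided comparison with the intensity trend switched on, and p was adjusted by the Benjamini-Hochberg method. The threshold was that of the study, 1.5-fold with an unadjusted p under 0.05. Shares, and the ratios between pairs of the 6 genes, were compared by exact two-sided permutation over the 70 arrangements of 4 against 4 libraries. Of the identifiers, 12144 were matched to GENCODE M21 (GRCm38), which gave positions and exon lengths for RPKM. Promoters came from a RefSeq table on GRCm38.p6, for 5 of the 6 genes.

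The 6 genes and the lists of partners and markers were chosen with earlier results of these data known. The text names the 6 genes, *Tgfbr2*, the ligands, the partners past the threshold and, for each of the 6, the 3 genes nearest in profile. *Tgfbr1*, *Bmp1*, *Itgav*, *Mfap2*, *Mfap4*, *Mfap5*, *Eln*, *Emilin1*, *Hspg2*, *Dcn*, the other lysyl oxidases and the single markers named were picked after their values were seen. The dental epithelium markers are not reported here. Whether libraries came from separate animals is not given in the sources used here, so p measures the spread between libraries, which may be technical in part. Any 2 libraries of one genotype differed by more than counting error (chi-square per degree of freedom of 19.1 to 275 between such pairs). Pairs that share a title number were at 35.8 (49 and 50), 38.3 (54 and 55) and 216 (53 and 56). This cannot tell whether 2 libraries share an animal, because separately prepared libraries of one animal can also differ beyond counting error. The test was checked on simulated data. Alternatives were no intensity trend, voom weights, library weights, quantile normalization, median centring, log2 of CPM plus 1, a filter at a mean log2 of at least 3, averaging libraries of one title number, the enamel mean as a covariate, other lengths for the shares, each library left out and, chosen after seeing the data, totals without *Amelx* and *Ambn*, the title number as a block and the SD ratios without Tgfbr2cko 56.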

Additional observations from a re-analysis of the deposited data

Results flagged for a closer look

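A library was flagged when its gap to the nearest other library of its genotype, divided by the range of the genotype, exceeded the critical value of Dixon for 4 samples. Of 50 groups of 4 libraries examined this way, 3 were flagged, and chance flags about 1 in 20 such groups. Among the LTBPs and fibrillins the *Fbn2* share of the group was flagged in the controls, at 23.9% in Osterix-Cre 51 against 19.7% to 20.1% in the other 3 (gap ratio 0.903). Among the partners, *Emilin2* was flagged at a log2 CPM of 7.15 in the library labelled Tgfbr2cko 56, against 8.11 to 8.28 in the other mutants (gap ratio 0.846). *Lrrc32* was flagged at a log2 CPM of 0.49 in Tgfbr2cko 53, against 1.95 to 2.09 in the other mutants (gap ratio 0.915), and fell by 1.81 on the log2 scale without that library (limma, adjusted p = 0.00157).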

How the results depend on the processing

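The count of LTBP and fibrillin genes past the threshold was 0 under all 21 alternatives. The count with an unadjusted p under 0.05 was 1, *Ltbp1*, instead of 0 after quantile normalization, median centring and averaging by title number, with *Ltbp1* log2 fold changes of -0.357, -0.396 and -0.355 (adjusted p of 0.435, 0.367 and 0.524), and it was 0 to 1 with each library left out. With library weights 258 genes in place of 115, and 7 partners in place of 2, had an adjusted p under 0.05, and the partner count was 1 without the trend and 1 with the filter, which removes *Lrrc32*. With each library left out these counts were 65 to 165 and 1 to 3.

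The direction of the smaller differences depended on the processing. *Ltbp2* was at 0.195 with library weights, 0.003 after quantile normalization, 0.205 with the enamel covariate and 0.066 with totals without *Amelx* and *Ambn*, under which *Ltbp4* was at 0.046. The last setting moved the median log2 fold change of all genes from -0.005 to 0.069. The *Ltbp2* share difference was -0.13 points when libraries of one title number were averaged, and that of *Ltbp1* was then -2.60 points (exact permutation p = 0.1, the smallest possible with 3 against 2). With each library left out, the log2 fold changes ran from -0.51 to -0.233 for *Ltbp1*, -0.16 to 0.219 for *Ltbp2*, -0.028 to 0.253 for *Ltbp3*, -0.318 to 0.185 for *Ltbp4*, -0.22 to -0.024 for *Fbn1* and -0.065 to 0.197 for *Fbn2*. The share differences ran from -3.36 to -2.47 points for *Ltbp1*, -0.35 to 0.38 for *Ltbp2*, -0.16 to 4.05 for *Ltbp3*, -1.92 to 2.76 for *Ltbp4*, -2.11 to -0.58 for *Fbn1* and -0.27 to 1.81 for *Fbn2*. The cause of these changes was not tested.

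The genotypes share only 1 title number, that of control 51, mutant 54 and the library labelled Tgfbr2cko 55, and no source says that it pairs them. With the title number as a replicate block, a fit chosen after seeing the data in which the genotype difference rests on those 3 libraries, 313 genes in place of 701 and 10 partners in place of 12 were past the threshold, and 0 genes had an adjusted p under 0.05 (limma). *Ltbp1* was at -0.25, *Ltbp2* at 0.401, *Ltbp3* at 0.412 and *Fbn2* at -0.076. The calls of *Tgfb1*, *Emilin2*, *Fbln1* and *Adamtsl4* were lost, with log2 fold changes of -0.66, -0.86, -0.53 and -0.91, and those of *Lrrc32* and *Nrros* passed the threshold with adjusted p of 0.881 and 1.0.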
